A study of Rattus norvegicus with 6 samples.

Results

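B cell and lymphoid follicle genes were followed in the ileum of obese rats after intestinal bypass or sham surgery. The set held 9 genes chosen by name, with earlier results of these data known. Of them 6 (Cr2, Ms4a1, Cd22, Cd79b, Spib and Pou2af1) were measured, each by 1 row of the expression table, among 14506 genes tested. Cd79a, Pax5 and Mzb1 had no row that carried their symbol alone in the array annotation and were not analysed here. The samples were ileum of Zucker fa/fa rats, a strain made obese by a defective leptin receptor, operated on at 20 weeks of age and killed 14 days later. In 3 rats a duodenum-jejunum bypass (DJB) joined the bowel below the upper jejunum directly to the duodenum, so that food passed by the duodenum and the first stretch of the jejunum. In the 3 control rats the surgery was a sham, in which the cut bowel was joined again in its normal order. All 6 rats carried the same genotype, no lean rats were among them, and each rat gave 1 Affymetrix whole-transcript array.

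The ileum holds Peyer's patches, groups of lymphoid follicles in the gut wall in which B cells gather around follicular dendritic cells and mature before they leave as precursors of IgA plasma cells. A B cell senses antigen through surface immunoglobulin paired with the signalling chains CD79A and CD79B, and coreceptors such as CR2 and CD22 raise or lower that signal. SPIB, POU2AF1 and PAX5 are transcription factors or cofactors that run the B cell programme, and SPIB is also needed by M cells, the antigen-sampling cells of the epithelium over follicles. Follicles are patchy along the ileum, and the labels do not say whether pieces with a visible patch were taken or avoided.

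Levels are on the log2 scale after RMA normalisation, and a difference of 1 is a change of 2-fold. Differences are DJB minus sham with a standard error (SE), and a gene was said to rise or fall where the limma p, adjusted over the 14506 genes, was under 0.05. The median level of the 6 arrays lay between 6.08 and 6.19, and precision is limited by having 3 arrays a group. Fabp6, the bile acid binding protein that marks the ileum, had a mean of 13.7 over the 6 arrays, and the 8 epithelial markers measured had means per array of 11.8 to 12.0. Smooth muscle markers, from the outer wall, had means per array of 9.82 to 10.4.

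All 6 measured genes had a lower mean after DJB than after sham surgery, by 0.01 to 1.08. Over all genes tested, 5550 had a lower and 8956 a higher mean. Of the 6, 0 passed the adjusted threshold. Among all genes tested, 0.772% passed it in either direction and 0.379% passed it as lower. At an unadjusted limma p under 0.05, Spib alone was lower, where 4.45% of all genes were lower by that measure and 14.3% differed in either direction. The median difference of the 6 genes was -0.53, beside 0.05 over all genes tested. For 5 of them the groups overlapped, while the Spib values of the groups did not overlap. The rats within each group lay far apart for Cr2, Ms4a1 and Cd22. Sham rats differed 1.25-fold for Cd79b and 1.26-fold for Pou2af1, less than the 1.34-fold for Spib. In a tissue sample, fewer B cells and less of these transcripts per cell cannot be told apart.

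Cr2 encodes complement receptor 2, carried by B cells and follicular dendritic cells, where it binds antigen tagged with complement. Its levels were 6.86, 7.35 and 5.60 in sham 1, sham 2 and sham 3 and 6.92, 4.05 and 5.60 in DJB 1, DJB 2 and DJB 3. DJB 1 therefore stood level with sham 1, DJB 3 with sham 3, and DJB 2 was far below all others. The highest and lowest arrays were 3.31 apart, a 9.90-fold difference, and within the DJB group alone the rats differed 7.34-fold. The means were 6.60 ± 0.91 (SD, n = 3) after sham surgery and 5.52 ± 1.44 (SD, n = 3) after DJB. The group difference of -1.08 ± 0.66 (SE) did not pass (limma adjusted p = 0.493), and its 95% interval ran from -2.57 to 0.40. An exact two-sided permutation test gave p = 0.5, where the smallest p that 3 against 3 rats allow is 0.1. Without DJB 2 the difference was -0.34, and without DJB 1 it was -1.78.

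Ms4a1 encodes CD20, a membrane protein of mature B cells. Its levels were 6.42, 6.78 and 5.43 in sham 1 to 3 and 6.56, 4.33 and 5.55 in DJB 1 to 3. The arrays fell in the same order as for Cr2, from sham 2 through DJB 1, sham 1, DJB 3 and sham 3 to DJB 2. The extremes differed 5.47-fold, and 4.68-fold within the DJB group. The difference between the groups was -0.73 ± 0.51 (SE, limma adjusted p = 0.560), with a 95% interval from -1.89 to 0.42. Without DJB 2 it was -0.16, and without DJB 1 it was -1.27.

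Cd22 encodes a lectin of the B cell surface that dampens receptor signalling. Its levels were 6.02, 6.49 and 5.40 in the sham rats and 6.17, 5.13 and 5.66 in the DJB rats, again in the order seen for Cr2. The difference was -0.32 ± 0.30 (SE, limma adjusted p = 0.683), and sham rats alone differed 2.13-fold. Cd79b encodes one of the signalling chains of the B cell receptor and was at 7.0, 7.01 and 6.69 in the sham rats and at 7.10, 6.44 and 6.61 in the DJB rats. DJB 1 was the highest and DJB 2 the lowest of the 6, and the difference of -0.18 ± 0.17 (SE, limma adjusted p = 0.681) had an interval from -0.57 to 0.20. Without DJB 2 the differences of Cd22 and Cd79b were -0.06 and -0.05.

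Pou2af1 encodes OCA-B, the B cell cofactor of the octamer-binding factors, which plasma cells also express. It was at 6.94, 6.99 and 6.66 in sham 1 to 3 and at 7.24, 6.44 and 6.88 in DJB 1 to 3, so that both the highest and the lowest value belonged to DJB rats. Its group means of 6.86 and 6.85 differed by -0.01 ± 0.19 (SE, limma adjusted p = 0.985), with a 95% interval from -0.44 to 0.42. The sign of this difference turned without sham 1, sham 2 or DJB 2, with values up to 0.20.

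Spib gave another order of rats, with the groups apart. It encodes a transcription factor of the ETS family, and its levels were 7.24, 6.93 and 6.81 in sham 1 to 3 and 6.52, 6.0 and 5.96 in DJB 1 to 3. Each DJB rat was below each sham rat, and the lowest sham and highest DJB values came from sham 3 and DJB 1. Groups that did not overlap in either direction were found for 21.1% of all genes tested, and for 6.56% with DJB lower. The means were 6.99 ± 0.22 (SD, n = 3) and 6.16 ± 0.32 (SD, n = 3), a level 1.78-fold lower after DJB. The difference of -0.83 ± 0.17 (SE) had a 95% interval from -1.22 to -0.45 and missed the threshold (limma adjusted p = 0.0750). The exact two-sided permutation p was 0.1, the smallest possible here. Without DJB 1 the difference was -1.02 and passed (limma adjusted p = 0.0209), while with any other array left out it did not (adjusted p up to 0.204). It also passed with the arrays centred on their medians (adjusted p = 0.0459), when dim genes were left out (adjusted p = 0.0389) and with an intensity trend and robust variance (adjusted p = 0.0271). A replicate block gave a call as well (adjusted p = 0.0413). Spib did not pass after repeated quantile normalisation (adjusted p = 0.0534), with the mean of all rows of a gene (adjusted p = 0.0755) or with all rows tested (adjusted p = 0.142).

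**Figure D1:**
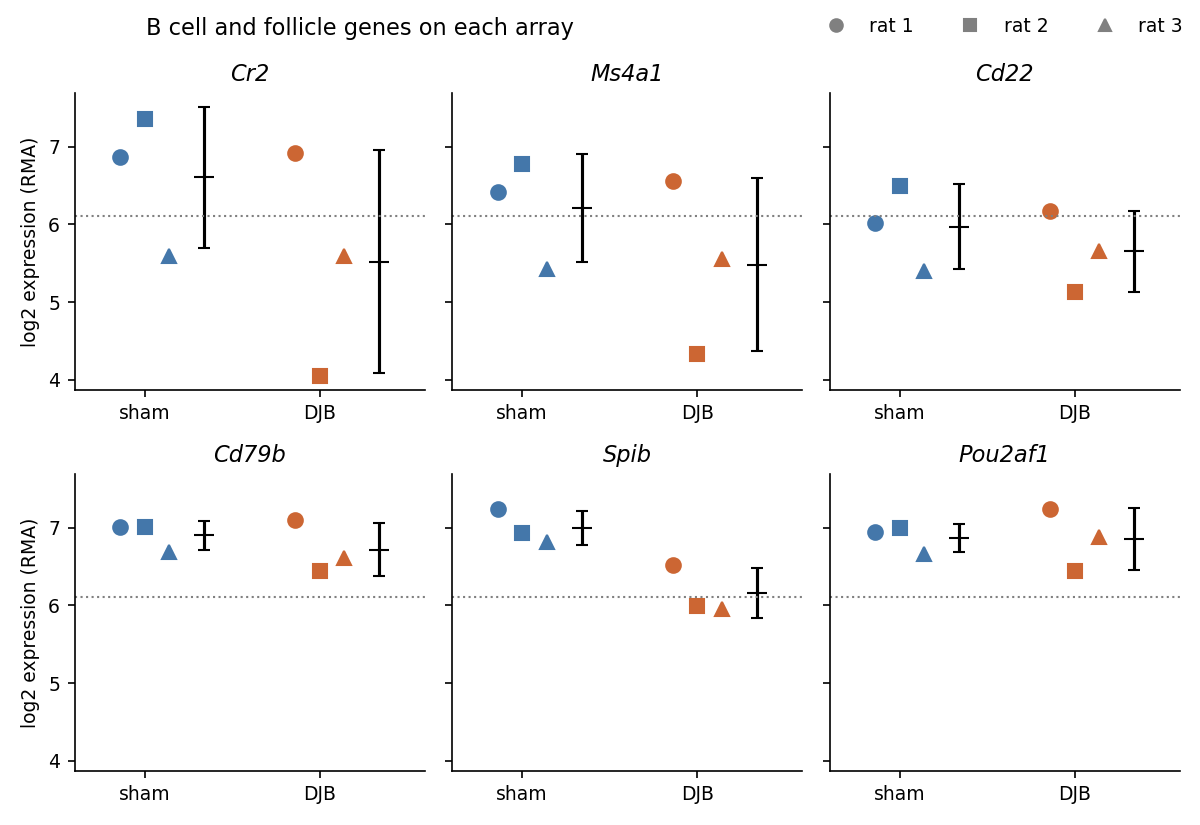
Log2 expression of each gene on each array, sham in blue and DJB in orange, with symbols for rats 1 to 3 of a group, the group mean ± SD in black (n = 3) and the median of all rows (6.11) as a dotted line. Spib is the gene whose groups do not overlap, while Cr2 and Ms4a1 spread widely within both groups and reach 4.05 and 4.33 in DJB 2.

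**Figure D2:**
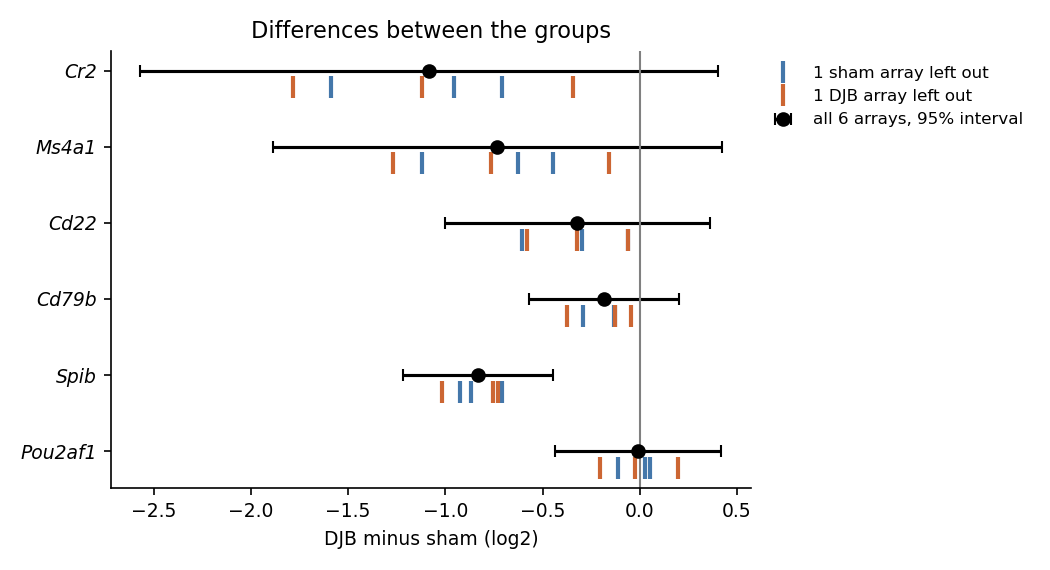
DJB minus sham on the log2 scale for each gene, as points with 95% intervals from limma, and the same difference with 1 sham array (blue) or 1 DJB array (orange) left out as ticks. The interval of Spib, from -1.22 to -0.45, lies below 0, and those of the other 5 genes include 0.

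The rats of a group differed more in these genes than in most. The pooled within-group SD was 1.20 for Cr2, which ranked 2 among the 14506 genes, 0.93 for Ms4a1 (rank 14) and 0.53 for Cd22 (rank 88). It was 0.31 for Pou2af1, 0.27 for Cd79b and 0.27 for Spib, beside a median of 0.14 over all genes. The group difference made up 23.3% of the sum of squares of Cr2 over the 6 arrays, 18.8% for Ms4a1, 11.9% for Cd22, 14.3% for Cd79b and 0.04% for Pou2af1, beside a median of 20.8% over all genes. For Spib it made up 77.8%. Cd22 lay under 6.11, the median of all rows, on 4 arrays, Cr2 and Ms4a1 on 3 each and Spib on 2 (DJB 2 and DJB 3), where summarised array values understate fold changes.

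**Figure D3:**
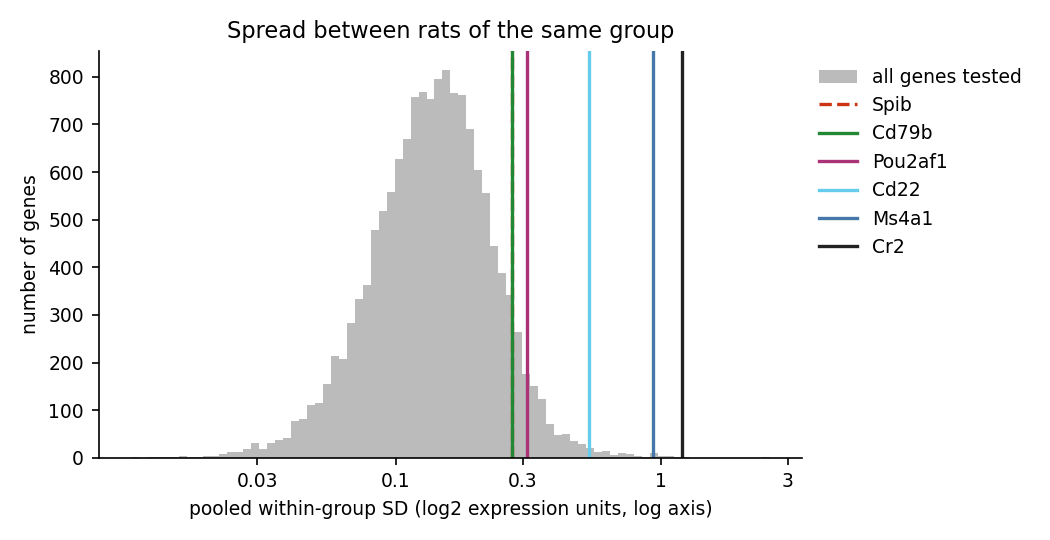
Number of genes (vertical axis) by pooled within-group SD of log2 expression (log axis) for all 14506 genes tested, with lines at the measured B cell genes. Cr2 at 1.20 and Ms4a1 at 0.93 lie in the far right tail, and Spib and Cd79b, both at 0.27, nearly coincide.

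Across rats, the 5 genes other than Spib varied together. DJB 2 was the lowest array for all 5, and the highest was sham 2 for 3 of them and DJB 1 for the other two. Cr2 and Ms4a1 followed each other almost exactly over the 6 arrays, with Pearson r = 0.998 and Spearman rho = 1.0 (exact permutation p = 0.00139 and 0.00278, adjusted over 15 pairs 0.0208 and 0.0139). Without DJB 2 and sham 2, the arrays farthest from the median of Cr2, their r was 0.994. Among the 10 pairs of the 5 genes, r ran from 0.862 to 0.998 and rho from 0.886 to 1.0. All 10 passed at an exact permutation p for r adjusted over the 15 pairs (0.0208 to 0.0458). For rho the adjusted exact permutation p ran from 0.0139 to 0.05. The pairs of Cd79b with Cr2, Ms4a1 and Cd22 stood at 0.05, not under it. Spib was set apart from the 5 with these values known, so the pass of all 10 is no independent evidence. The lowest r over the 4 arrays left without the farthest pair was 0.667, for Cd79b and Pou2af1. With group means taken out, r between the 5 genes ran from 0.895 to 1.0.

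For Spib the values of r were lower. Its r with the others ran from 0.363 with Pou2af1 to 0.718 with Cr2 and its rho from 0.371 to 0.543, and 0 of its 5 pairs passed (exact permutation p for r adjusted over the 15 pairs from 0.163 to 0.482). With the farthest arrays left out, its r ran from -0.40 to 0.82. Taking out the group means gave r of 0.607 to 0.876 with the other genes, and whether Spib differed from them in its response to surgery was not tested. All these relations rest on 6 arrays that share a normalisation.

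**Figure D4:**
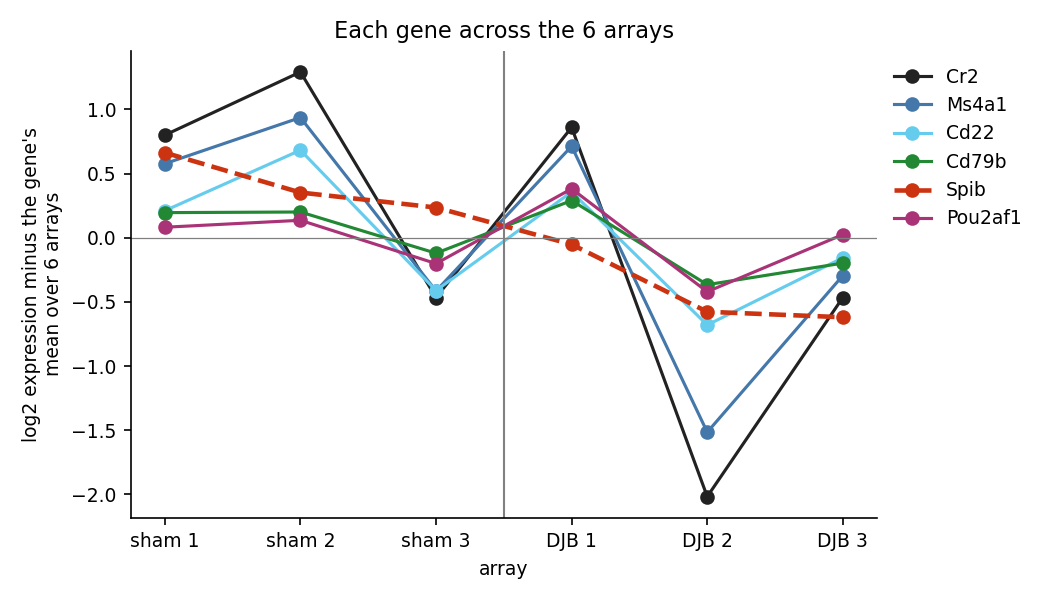
Log2 expression of each gene minus its own mean over the 6 arrays (vertical axis), for sham 1 to 3 and DJB 1 to 3 (horizontal axis). The solid lines of Cr2, Ms4a1, Cd22, Cd79b and Pou2af1 share a peak at sham 2 or DJB 1 and their low point at DJB 2, while the dashed line of Spib separates the groups.

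Promoters are shown for Cr2 and Cd22, which followed one another between rats, and for Spib, which did not follow them closely. They are RefSeq sequences of the assembly GRCr8, from 250 bases before to 50 bases after the gene's start, printed 5′ to 3′ on the gene's own strand. Of the 9 genes, 4 had a promoter in the table used, and Ms4a1, Cd79b, Pou2af1, Pax5 and Mzb1 did not. The promoter of Cr2 lies at chr13:109244457-109244756 on the minus strand, that of Cd22 at chr1:95259681-95259980 on the minus strand and that of Spib at chr1:104161246-104161545 on the minus strand. Capitals mark matches to the motifs searched on both strands.
Cr2: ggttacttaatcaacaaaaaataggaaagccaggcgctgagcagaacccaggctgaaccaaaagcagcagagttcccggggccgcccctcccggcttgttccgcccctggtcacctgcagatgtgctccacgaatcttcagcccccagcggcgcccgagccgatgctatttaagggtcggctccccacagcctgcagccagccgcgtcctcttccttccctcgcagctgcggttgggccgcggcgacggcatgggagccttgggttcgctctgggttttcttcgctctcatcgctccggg
Cd22: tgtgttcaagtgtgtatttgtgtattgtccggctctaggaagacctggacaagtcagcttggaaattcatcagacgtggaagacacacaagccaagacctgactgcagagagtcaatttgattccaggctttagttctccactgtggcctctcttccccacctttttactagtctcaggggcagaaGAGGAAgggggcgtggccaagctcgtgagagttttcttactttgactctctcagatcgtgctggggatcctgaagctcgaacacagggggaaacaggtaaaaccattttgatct
Spib: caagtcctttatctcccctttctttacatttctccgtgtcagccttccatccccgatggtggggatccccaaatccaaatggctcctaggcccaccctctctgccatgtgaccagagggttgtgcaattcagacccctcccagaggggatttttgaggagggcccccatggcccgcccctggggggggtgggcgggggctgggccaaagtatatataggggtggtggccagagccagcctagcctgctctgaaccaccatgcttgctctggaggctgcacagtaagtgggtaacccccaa

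The motifs were the octamer bound by the partners of OCA-B (ATGCAAAT), the ETS core bound by SPIB and its relative PU.1 (GAGGAA) and the palindrome bound by the early B cell factor EBF1 (TCCCNNGGGA). The ETS core was found once in the Cd22 promoter, on the gene's strand from base -64 before the start, and 27.6% of all 33469 promoters of that length held it. The promoter of Cd79a, which is not printed and whose expression was not measured, also held it once, on the opposite strand from base -141. The octamer was held by 1.78% and the EBF palindrome by 0.834% of all promoters. Neither was among the letters of the Cr2, Cd22 or Spib window, and the Cr2 and Spib windows held no ETS core. The Cr2 window had 63.0% G and C bases, that of Spib 59.3% and that of Cd22 48.7%.

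Other B cell genes showed the same order of rats in part. A profile was made as the mean over the 6 genes of values centred per gene, which Cr2 and Ms4a1 dominate through their spread. A Pearson r of at least 0.8 with this profile over the 6 arrays was reached by 2.79% of all genes tested, a limit chosen after the values were seen. Of 20 measured B cell surface and receptor signalling genes, 8 reached it. They were the receptor-like gene Cd180 (r = 0.939), the IgE receptor gene Fcer2 (0.913), Btk (0.910), Syk (0.879) and Blk (0.813), which encode kinases of the receptor pathway, the protein kinase C gene Prkcb (0.869), Swap70, an activator of Rac (0.837), and the phosphatase gene Ptpn6 (0.817). The count was 4 of 20 without DJB 2, when 3.97% of all genes reached the limit. Between the groups 0 of the 20 passed in limma and 2 had an unadjusted p under 0.05, beside 14.3% of all genes. In this list 12 had lower and 8 higher means, beside 5550 lower and 8956 higher over all genes, and the median difference of the list was -0.08. Those of lowest p were the adaptor gene Blnk (-0.56 ± 0.19, SE), Cd24 (0.23 ± 0.09) and Ptpn6 (-0.24 ± 0.11).

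Follicle stroma and follicle-organising genes were close to the profile in 6 of 15 cases, and in 6 to 8 with any 1 array left out, when 3.97% to 6.69% of all genes reached the limit. With group means taken out, 9 of the 15 had r of at least 0.8, beside 10.2% of all genes. Ccl21, the chemokine of lymphatic vessels and T cell zones, was at 7.70, 7.91 and 7.27 in sham 1 to 3 and at 7.77, 6.69 and 7.25 in DJB 1 to 3 (r = 0.997). Of the genes other than the 6, with those named only by an accession, locus or predicted-gene number left out, Ccl21 had the highest r. Cxcl13, the chemokine that draws B cells into follicles, was at 8.85, 9.12 and 7.86 in the sham rats and at 8.28, 7.39 and 7.78 in the DJB rats (r = 0.927). Sham 2 was highest and DJB 2 lowest for both chemokines, and neither difference passed (-0.39 ± 0.26 and -0.80 ± 0.32, limma adjusted p = 0.530 and 0.305). Clu and Mfge8, made by follicular dendritic cells among other cells, were likewise highest in sham 2 and lowest in DJB 2 (r = 0.944 and 0.945). Ccl19, a chemokine of T cell zones, was highest in sham 1 and lowest in DJB 2 (r = 0.916). Glycam1, a ligand for lymphocyte homing on high endothelial venules, had r = 0.879. The rest of the list had r under 0.8, lowest for Tnfsf13b (-0.30), Fdcsp (-0.24) and Vcam1 (-0.09). Of these, Fdcsp was dim, with group means of 4.27 in the sham and 4.42 in the DJB rats. Cxcl13, Clu, Mfge8, Ccl19, Glycam1, Fdcsp, Vcam1 and the signalling genes listed for their r were named after their values were seen.

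Tnfsf13b, which encodes the B cell survival factor BAFF, went the other way between the groups. It was at 6.91, 7.05 and 6.89 in the sham rats and at 7.63, 7.46 and 7.53 in the DJB rats. Each DJB rat was above each sham rat, and the rise of 0.59 ± 0.10 (SE) passed (limma adjusted p = 0.0336), the single call among the 15 genes of the list, where 0.393% of all genes were called higher. The call was lost whichever array was left out (adjusted p from 0.0815 to 0.147) and with all rows tested (adjusted p = 0.0744). The list as a whole had lower means for 10 genes and higher means for 5, with a median difference of -0.16. Over all genes tested, 5550 were lower and 8956 higher.

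B cell transcription factors and survival receptors reached the limit in 1 of 14 cases, the follicle homing receptor gene Cxcr5 (r = 0.876). Between the groups 0 of the 14 passed in limma and 2 had an unadjusted p under 0.05, the same share as the 14.3% of all genes. In this list 9 had lower and 5 higher means, beside 5550 lower and 8956 higher over all genes. The lowest p belonged to Irf8 (0.40 ± 0.15, SE), Spi1 (-0.28 ± 0.12) and Foxo1 (-0.17 ± 0.09). Of 9 germinal centre genes 1, Lmo2, reached it (r = 0.834), 0 passed between the groups in limma, 0 also at an unadjusted p under 0.05, and Bcl6, the master regulator of that cell state, differed by 0.25 ± 0.18. Of 9 plasma cell genes 1, the BAFF family receptor gene Tnfrsf17, reached it (r = 0.802), and 0 passed in limma, with 1 at an unadjusted p under 0.05, the surface proteoglycan gene Sdc1 (0.38 ± 0.15). Jchain, which links the units of secreted IgA, was at 11.29, 11.42 and 10.99 in the sham rats and at 10.93, 10.83 and 11.16 in the DJB rats (-0.26 ± 0.14). Its span over the 6 arrays, 0.59, was far narrower than that of Cr2 (3.31) but near that of Cd79b (0.66).

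M cell genes were set beside Spib, since Spib is shared with those cells. Of the 6 measured apart from Spib, 0 reached the limit, and 0 passed in limma, with 2 at an unadjusted p under 0.05, Ccl20 and Ccl9, where 14.3% of all genes were. Ccl20, the chemokine made by epithelium over follicles and by inflamed epithelium, was at 6.75, 7.26 and 7.06 in the sham rats and at 7.35, 8.25 and 8.45 in the DJB rats. Its difference was 0.99 ± 0.26 (SE, limma adjusted p = 0.148). It passed without DJB 1 (adjusted p = 0.0116) but with no other array left out (adjusted p up to 0.337). The other alternatives did not call it either (adjusted p from 0.0783 to 0.235). Ccl9, another chemokine gene, differed by -0.59 ± 0.15 (SE, limma adjusted p = 0.133), and Marcksl1 differed by -0.17 ± 0.09. Gp2, the receptor that defines mature M cells, differed by 0.11. It was dim, at 4.05 to 4.62 over the 6 arrays beside a median of all rows of 6.11, so this small difference says little.

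Markers of other cells were set against the same profile. None of the 17 T cell, 10 pan-leukocyte, 12 myeloid, 6 tuft cell, 8 epithelial, 8 smooth muscle or 9 dividing cell genes had an r of at least 0.8, and 1 of 7 plasmacytoid dendritic cell genes did, Runx2 (r = 0.835). The median r was 0.07 for T cell genes, 0.58 for pan-leukocyte genes and -0.61 for epithelial genes. With group means taken out, r was at least 0.8 for 3 of the 17 T cell, 1 of the 10 pan-leukocyte, 1 of the 12 myeloid and 3 of the 7 plasmacytoid dendritic cell genes, beside 10.2% of all genes. It was so for 0 of the tuft cell, epithelial, smooth muscle or dividing cell genes. Without DJB 3, 2 of the 17 T cell genes reached the limit, and without sham 1 it was 1. DJB 3 had the highest mean of the T cell genes (7.07, beside 6.54 to 6.86 on the other arrays) at a Cr2 level of 5.60. The pan-leukocyte mean was 7.90 in DJB 2, the lowest of the 6, and 8.05 to 8.45 on the other arrays, and its part in the low B cell genes of DJB 2 was not tested. Between the groups, 1 gene of these lists passed, the mitotic cyclin gene Ccnb1 (0.60 ± 0.11, limma adjusted p = 0.0497), a call lost whichever array was left out (adjusted p from 0.0973 to 0.190), after repeated quantile normalisation (0.0623), with median centring (0.0573) and with all rows tested (0.0970). T cell genes had a higher mean after DJB in 15 of 17 cases (median difference 0.16, with Cd3d at 0.49 ± 0.18) and myeloid genes in 10 of 12 (median 0.23, with Cd14 at 0.54 ± 0.12), with 0 calls in either by limma. Over all genes tested, 8956 of 14506 had a higher mean after DJB. At an unadjusted limma p under 0.05 were 2 of the 17 and 6 of the 12, beside 14.3% of all genes. Median differences were -0.01 for pan-leukocyte, 0.06 for plasmacytoid dendritic cell, -0.26 for tuft cell, 0.11 for epithelial, 0.22 for smooth muscle and 0.30 for dividing cell genes.

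**Figure D5:**
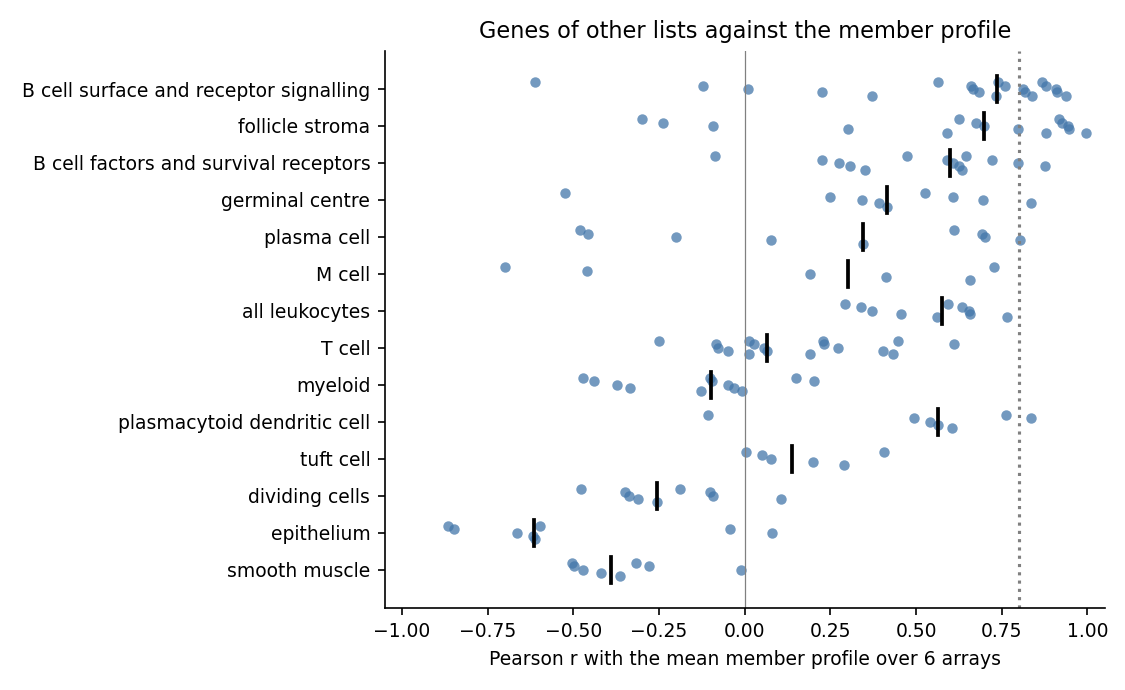
Pearson r of each gene with the mean profile of the 6 measured B cell genes over the 6 arrays (horizontal axis), for 14 gene lists without those 6 genes; black bars are list medians and the dotted line is r = 0.8. Of the B cell signalling list 8 of 20 and of the follicle stroma list 6 of 15 lie past the line, beside 2.79% of all genes tested.

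Genes named only by an accession, locus or predicted-gene number were left out of the ranking by r. By r alone, the 10 remaining genes closest to the profile were Ccl21, Nrl, Or5be3, Lrrfip2, Usp24, Psmb7, Or5ac24, Siva1, Serp1 and Wnt8a, with r from 0.967 to 0.997. All of these but Ccl21 spanned 0.33 or less over the 6 arrays, so their order rests on small differences. An SD over the 6 arrays of at least 0.3, a limit added after the values were seen, was reached by 1061 genes. With the 6 measured genes and the same kinds of name left out, the closest of these were Ccl21, Btla, Samd9l, Mfge8, Mx1, Clu, Fcmr, Cd180, Cd5l and Cxcl13, with r from 0.927 to 0.997. Btla encodes an inhibitory receptor of B and T cells and Fcmr the receptor for IgM, while Samd9l and Mx1 are interferon-induced genes.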

How the data were processed

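Total RNA of ileum from 6 rats (3 sham, 3 DJB) was hybridised to 1 array each, per the labels' protocols. The deposited table of the series holds log2 expression values for 29214 rows. RMA is the only method named, with no version, per the submitters' processing notes. RMA as usually run normalises quantiles between arrays, so a shift common to most genes can be hidden, and dim rows understate folds. The array medians still differed, with DJB 1 at 6.19 and the other arrays at 6.08 to 6.11. Without DJB 1 the median difference over all genes was 0.0096, beside 0.05 with all arrays. Genome build and scan batches are not given in the sources used here. Groups and rat numbers came from the sample titles.

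Rows were named from the platform annotation (15310 with 1 symbol, 323 with several, 13581 with none). Only rows with 1 symbol were used, and for each gene the row of highest mean was kept, which gave 14506 genes. All 6 measured members kept their symbol in the RefSeq table of GRCr8. DJB was compared with sham with limma 3.58.1 in R 4.3.3 (lmFit, eBayes, no covariate, no filter, two-sided, Benjamini-Hochberg over all genes, threshold 0.05). The fit and the profile measure were run on simulated data with planted genes and otherwise independent values, which checks the code and not these results. Exact permutation tests, correlations and figures used Python 3.11.15. p-values cover the spread between these rats.

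The members and lists were chosen with earlier results of these data known. The genes named were all members, from each list its called genes or else up to 3 of lowest p (not every one is printed), and the 10 genes of highest r with the member profile. The ranking by r left out names that are only an accession, locus or predicted-gene number. Alternatives were a replicate block, repeated quantile normalisation, median centring, dim genes left out, a trended and robust eBayes, mean rows, all rows and each array left out. Leaving arrays out of the profile, taking out group means and the SD limit were added after seeing the data. Lists were described by counts and medians and had no set test.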

Additional observations from a re-analysis of the deposited data

How the results depend on the processing

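With any 1 array left out, the number of all genes called ranged from 33 to 108 (112 with all arrays) and that of members called from 0 to 1, and the median member difference ranged from -0.80 to -0.11. Genes called numbered 225 with dim genes left out (3 members remained, and 1 was called) and 313 with the trended and robust fit. The member called was Spib under each of the 5 settings that called 1 member: the replicate block, median centring, dim genes left out, the trended and robust fit, and DJB 1 left out. Cr2, Ms4a1, Cd22 and Cd79b stayed lower and uncalled under every alternative that tested them, with differences without 1 array of -1.78 to -0.34, -1.27 to -0.16, -0.61 to -0.06 and -0.37 to -0.05. The Pou2af1 difference ranged from -0.20 to 0.20 without 1 array, Mybl1 (germinal centre list) from -0.17 to 0.28 and Lag3 (plasmacytoid list) from -0.12 to 0.71, each with a change of sign. The median r among the 5 genes was 0.885 to 0.959 without 1 array. With group means taken out, 10 of 20 signalling and 9 of 15 stroma genes had r of at least 0.8, beside 10.2% of all genes.

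The sample titles do not say whether rats with the same number were paired, and the main fit treated them as unpaired. The correlations of their deviations from the group means over all genes were 0.01, -0.12 and -0.15. With so few arrays in a group, these values cannot decide whether the rats were paired. With the replicate block, 50 genes and 1 member, Spib (adjusted p = 0.0413), were called, while the calls of Tnfsf13b (adjusted p = 0.140) and Ccnb1 (adjusted p = 0.174) were lost.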
